A study of Rattus norvegicus with 8 samples.

Results

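The genes described are the lysosomal cathepsins Ctsa, Ctsb, Ctsc, Ctsd, Ctsh, Ctsk, Ctsl, Ctss and Ctsz, chosen by gene symbol and not by their values. They are 9 of the 32754 genes in the count tables, and all 9 were listed in each of 8 single-cell libraries of rat liver immune cells. Cathepsins are made as inactive precursors, sorted to lysosomes and activated there at acid pH, where they degrade proteins delivered by endocytosis, phagocytosis and autophagy. Most are cysteine proteases, Ctsd is an aspartic protease and Ctsa is a serine carboxypeptidase that also protects other lysosomal enzymes. In the liver they are known from the resident macrophages, the Kupffer cells, and from other cells that process antigen for MHC class II.

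The libraries came from 4 male Han Wistar rats. NC1 and NC2 were the controls, fed a choline-sufficient l-amino acid-defined diet (CSAA), while PC1 and PC2 were fed its choline-deficient form (CDAA), which is used to induce steatohepatitis. From each animal, immune cells were collected at the interphase of a density gradient after lysis of erythrocytes, and 1 part was captured fresh while another was stored frozen in a dimethyl sulfoxide medium (DMSO) for 3 weeks before capture with a Chromium 3′ kit. Fresh and frozen cells of an animal were therefore captured on different days, so the day of capture and the storage cannot be told apart. All values are counts of unique molecular identifiers (UMIs), given as UMIs per 10000 UMIs, and since 3′ tags are not divided by transcript length they are compared within a gene and not between genes. The age of the animals and the duration of the diets are not given in the sources used here.

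The 8 libraries held 18338700 to 26471843 UMIs, and 34053 barcodes with at least 500 UMIs were kept, 3673 to 4771 per library with medians of 3339 to 4309 UMIs. Between 13 and 36 barcode sequences were shared by any pair of libraries. Lineages were gated by Clec4f, Clec4a3, Vcan, Siglech, Cd79a, Cd3e and Ncr1, requiring at least 1 UMI of the gate gene and 0 of the other 6. In all 8 libraries the marker list of each gate was higher in its own gate than in the others, so the gates are called Kupffer-like, Fcgr3a myeloid-like, classical monocyte-like, plasmacytoid dendritic-like, B-cell-like, T-cell-like and NK-like in that order. Of the 395 barcodes of the Clec4f gate, however, 83.5% held a single Clec4f UMI, and their summed Kupffer list was at 45.7 UMIs per 10000 in the fresh libraries. A second gate, chosen after these values were seen, required at least 3 UMIs of the gate gene and more than of each other gate gene. It allowed UMIs of the other gate genes and is not a part of the 1-UMI gate, with 3491 Siglech barcodes against 2875. For Clec4f it held 236 barcodes, where the Kupffer list reached 210 UMIs per 10000. Only 65 barcodes of the 1-UMI Clec4f gate held at least 2 Clec4f UMIs. Most of the 236 therefore also held UMIs of other gate genes. Each result below is given for the 1-UMI gates, on which the tests were set up, and beside it for the 3-UMI gates. NC1 stood apart from the other animals in how its cells changed with storage. Of 1318 genes called for storage in the other 3 animals over all barcodes, 75.5% moved the same way in NC1. With NC2, PC1 or PC2 as the animal left out it was 99% of 207, 95.9% of 368 and 91.6% of 463 genes. The lists differ in length, so these percentages are not on the same footing. Its fresh cells held more of the mast cell and basophil list than its stored cells (0.688 and 0.00439 UMIs per 10000), as in the other animals. Results that depend on NC1 are given with and without it. RNA outside cells was read from barcodes with 1 to 100 UMIs, called empty barcodes here.

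Ctsd is the member whose level followed the diet, so the sequence before its start is shown. RefSeq (assembly GRCr8, a later build than the Rnor6.0 assembly the counts were made on) places it on the minus strand, and the 250 bases before the start lie at chr1:206968822-206969071. The capitals mark the letters CACGTG, the core of the E-box that basic helix-loop-helix factors such as TFEB, a regulator of lysosomal genes, are known to bind.
Ctsd: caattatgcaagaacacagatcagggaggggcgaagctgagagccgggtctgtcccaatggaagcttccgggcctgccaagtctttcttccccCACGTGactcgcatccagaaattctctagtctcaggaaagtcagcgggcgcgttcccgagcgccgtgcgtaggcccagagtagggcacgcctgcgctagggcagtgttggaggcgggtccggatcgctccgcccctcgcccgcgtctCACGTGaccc
The matches begin 157 and 10 bases before the start. In windows of 300 bases, CACGTG was found in 6.42% of 33469 promoters and in 1 of the 8 members that had an entry (Ctsb had none), and 0.52% of all promoters held at least 2 matches, as Ctsd did. The longer CLEAR element, which contains CACGTG, stood in 0.233% of promoters and TGACTCA in 4.63%, and neither stood in a member. Both strands were searched, and a match describes these letters only.

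Across the lineages, the fresh mean levels of Ctsb, Ctsh, Ctss and Ctsz in the 1-UMI gates were lowest in the T-cell-like and NK-like gates, Ctsl set the Siglech gate apart and Ctsd was highest in the Clec4f gate, while Ctsa and Ctsc did not differ between neighbouring gates. Ctsk was barely detected. Of 168 tests of a member between a pair of 1-UMI gates, 94 passed an adjusted p of 0.05 (edgeR quasi-likelihood test with Benjamini-Hochberg adjustment, animals as blocks), against 17.7% of all gene tests in the same comparisons. Among 3-UMI gates it was 129 of 168, against 29.8%. By gene, the calls between 1-UMI gates numbered 16 of 21 for Ctsz, 15 for Ctsb and for Ctsh, 14 for Ctss, 12 for Ctsd, 9 for Ctsa and for Ctsl, and 4 for Ctsc.

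**Figure D1:**
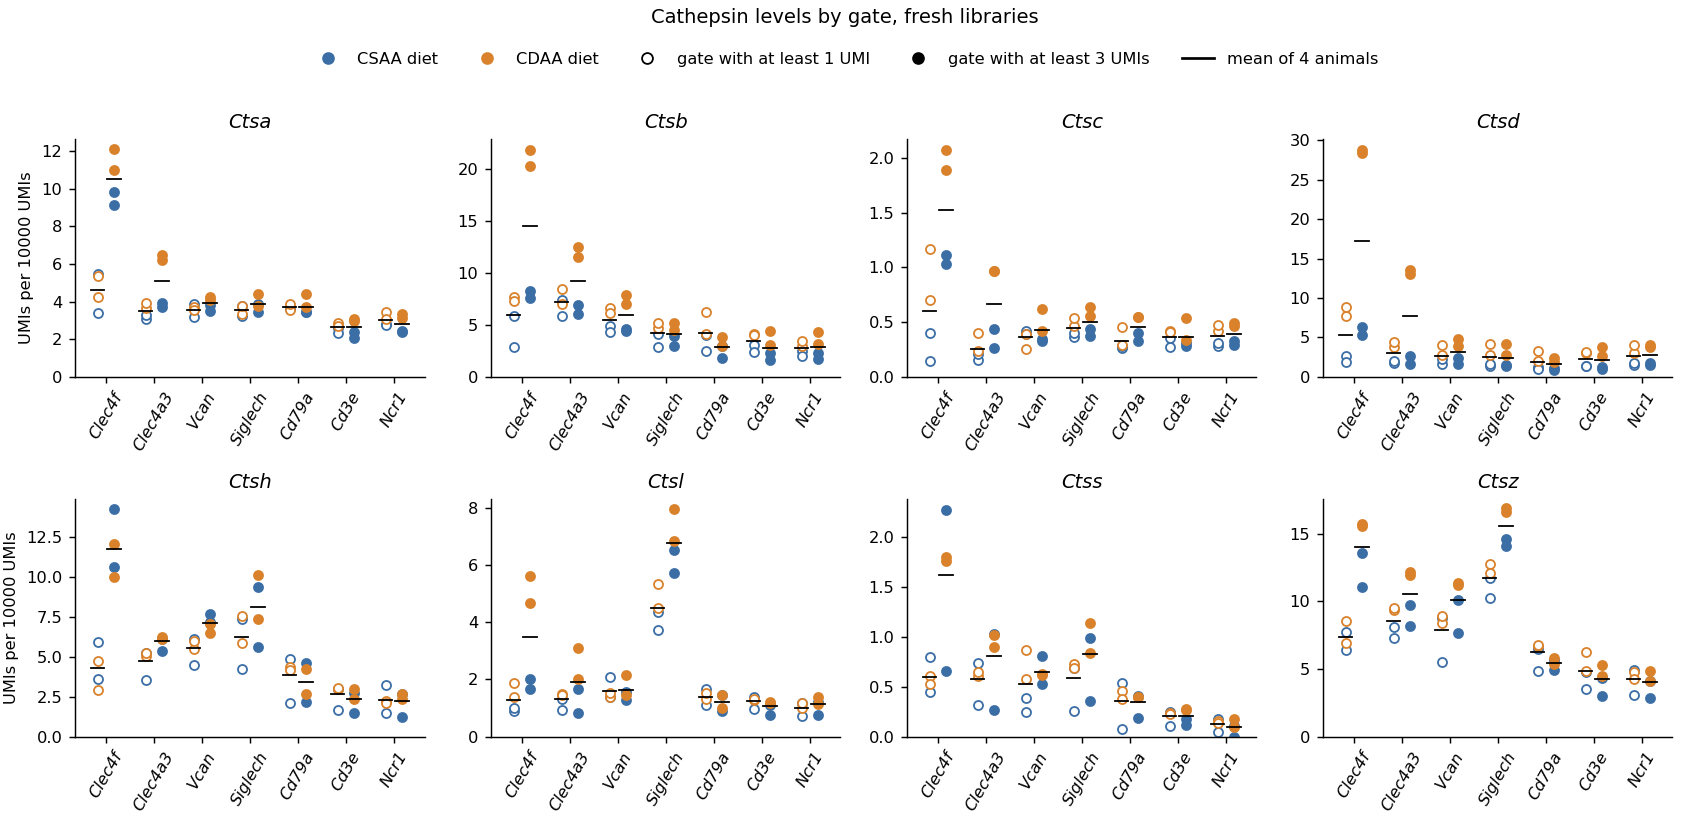
Level of each of 8 cathepsin genes (y axes, UMIs per 10000 UMIs, linear) in the fresh library of each animal for 7 gates (x axes), with open points for gates of at least 1 UMI, filled points for gates of at least 3 UMIs, blue for CSAA, orange for CDAA and a bar for the mean of 4 animals. Ctsd in the 3-UMI Clec4f gate lay at 5.35 and 6.34 in the CSAA animals and at 28.7 and 28.3 in the CDAA animals, and Ctsl was highest in the Siglech gate.

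Ctsl, a cysteine endopeptidase, was highest in the plasmacytoid dendritic-like cells. Its fresh level in the 1-UMI Siglech gate was 4.48 ± 0.657 UMIs per 10000 (SD, n = 4), while the means of the other 6 gates lay between 1.01 and 1.60. The difference from the next gate, Vcan, was 1.48 on the log2 scale (adjusted p = 1.94e-10, edgeR with Benjamini-Hochberg adjustment), and the remaining gates did not differ from their neighbours in the order beyond their spread. With 3 UMIs of Siglech required, Ctsl reached 5.71 and 6.53 UMIs per 10000 in NC1 and NC2 and 6.85 and 7.95 in PC1 and PC2, and after storage 9.22, 7.34, 7.37 and 9.17. All 8 of these values lay above those of the other 3-UMI gates in the same library and above the empty barcodes (2.096 to 3.83). The Clec4f gate came next with 3.49 ± 1.95, 0.85 lower on the log2 scale (adjusted p = 7.48e-05).
With every barcode thinned to 500 UMIs, 27.98% ± 3.14 of the 3-UMI Siglech barcodes held a Ctsl UMI, against 5.07% ± 0.978 of the Cd3e barcodes. The Cd3e level of Ctsl lay below that of the empty barcodes in all 8 libraries, so its share is read as background. Without thinning the shares were 95.2% and 47.4%, at median depths of 8359 to 9642 and 5176 to 6180 UMIs in the fresh libraries.

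Ctsz, a carboxypeptidase, and Ctsh, an aminopeptidase, were also high in the Siglech gate. More of both was found in the monocyte-like and macrophage-like gates than in the T-cell-like and NK-like gates. The 1-UMI Clec4f and Cd79a gates did not differ in Ctsz (log2 0.25, adjusted p = 0.145, edgeR) or in Ctsh (0.15, adjusted p = 0.662). Fresh Ctsz was at 11.7 ± 1.06 UMIs per 10000 in the 1-UMI Siglech gate and at 8.57 ± 1.05 in the Clec4a3 gate, which differed (log2 difference 0.41, adjusted p = 9.69e-05, edgeR). Its lowest means were 4.84 ± 1.12 in the Cd3e gate and 4.25 ± 0.852 in the Ncr1 gate. In the 3-UMI gates the Siglech (15.5 ± 1.41) and Clec4f (14.0 ± 2.171) levels of Ctsz did not differ beyond their spread (0.03 on the log2 scale, adjusted p = 0.829).
Ctsh had the same low end of the order, with 2.65 ± 0.673 in the Cd3e gate and 2.27 ± 0.742 in the Ncr1 gate. At the other end stood Siglech with 6.24 ± 1.55 and Vcan with 5.53 ± 0.732, which did not differ (adjusted p = 0.871). The 3-UMI Clec4f gate placed first for Ctsh at 11.7 ± 1.88, 0.67 above Siglech on the log2 scale (adjusted p = 1.77e-05), whereas the 1-UMI Clec4f gate, at 4.30 ± 1.31, came after Siglech, Vcan and Clec4a3.

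Ctsd and Ctsb, which degrade bulk protein in macrophage lysosomes, were highest in macrophage-like and myeloid-like gates. Fresh Ctsd in the 1-UMI Clec4f gate was 5.28 ± 3.55 UMIs per 10000 and exceeded the Clec4a3 gate (3.02 ± 1.31) by 0.75 on the log2 scale (adjusted p = 0.00016, edgeR). From Clec4a3 down to Cd79a (1.88 ± 1.04) no neighbouring gates differed. Ctsb was at 7.16 ± 1.07 in the 1-UMI Clec4a3 gate, 5.90 ± 2.20 in the Clec4f gate and 5.50 ± 1.09 in the Vcan gate, without a difference between neighbours, and the Vcan gate exceeded Siglech (4.25 ± 1.001) by 0.48 (adjusted p = 0.00254). In the 3-UMI gates the Clec4f gate led for both: Ctsd was at 17.2 ± 13.1 and Ctsb at 14.5 ± 7.62, against 7.75 ± 6.46 and 9.25 ± 3.25 in the Clec4a3 gate. These SDs hold the difference between the diets described below.
The Ctsd level exceeded that of the empty barcodes in 8 of 8 libraries in the 3-UMI Clec4f gate, in 6 in the Clec4a3 gate and in 2 in the Vcan gate. It did so in 0 of 8 in the Siglech, Cd79a and Cd3e gates and in 1 in the Ncr1 gate, so no expression is read from the Ctsd level there.

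Ctsa, the protective carboxypeptidase, differed between the ends of the order of 1-UMI gates but not between neighbours. Its fresh means in the 1-UMI gates ran from 2.63 ± 0.244 UMIs per 10000 (Cd3e) to 4.61 ± 0.988 (Clec4f), and no neighbouring gates differed in the edgeR fit. The 3-UMI Clec4f gate stood apart at 10.5 ± 1.32, above Clec4a3 (5.08 ± 1.46) by 1.02 on the log2 scale (adjusted p = 9.66e-11). Ctsc, the dipeptidyl peptidase that activates granzymes and other granule proteases, was low throughout, from 0.254 ± 0.106 in the 1-UMI Clec4a3 gate to 0.603 ± 0.438 in the Clec4f gate. Its 1-UMI Ncr1 level, in the cells that use granzymes, was 0.374 ± 0.0883 and close to the 0.366 ± 0.0696 of the Cd3e gate (adjusted p = 0.939). Ctsc lay above the empty barcodes in only 2 libraries of this Ncr1 gate and in 4 of this Cd3e gate. The closeness of these levels is therefore not read as equal expression in these cells. The 3-UMI Clec4f gate had 1.53 ± 0.530, 1.05 above Clec4a3 on the log2 scale (adjusted p = 2.14e-06).

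Ctss, the protease that trims the MHC class II invariant chain, was lower in the B-cell-like, T-cell-like and NK-like gates than in the others. The 1-UMI Clec4f (0.595 ± 0.150), Siglech (0.590 ± 0.224), Clec4a3 (0.577 ± 0.181) and Vcan (0.522 ± 0.268) gates did not differ between neighbours. The Cd79a gate (0.360 ± 0.201) was lower than Vcan by 0.73 on the log2 scale (adjusted p = 0.0265, edgeR), the Cd3e gate (0.203 ± 0.0678) lower again by 0.76 (adjusted p = 0.0111), and the Ncr1 gate (0.127 ± 0.0556) lower again by 0.71 (adjusted p = 0.0200). In 8 of 8 libraries the Ctss level in the 1-UMI Siglech, Clec4a3 and Vcan gates exceeded that of the empty barcodes. The 3-UMI Clec4f gate (1.62 ± 0.684) exceeded Siglech (0.832 ± 0.340) by 1.09 on the log2 scale (adjusted p = 2.18e-07, edgeR). From Siglech through Clec4a3 to Vcan no neighbouring 3-UMI gates differed. Ctsk, the collagenase of osteoclasts, gave 74 UMIs in all kept barcodes, 25 of them in fresh NC1 and 3 to 11 in each other library. At that depth no lineage, diet or storage difference of Ctsk could be read, and it passed the filter on low counts only in the test of the diet by storage term over all barcodes.

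The diet comparison asks which cathepsins differ in liver immune cells of animals on the choline-deficient diet. Over all barcodes, Ctsd was the member that rose. Its level in the fresh libraries was 1.64 and 1.59 UMIs per 10000 for NC1 and NC2 and 4.48 and 6.26 for PC1 and PC2. After storage the values were 1.63, 1.55, 5.73 and 5.85. Both CDAA animals lay above both CSAA animals each time. The fresh difference was 3.38-fold (log2 1.76, SE 0.178, adjusted p = 0.0226, edgeR with Benjamini-Hochberg adjustment), and the stored cells of the same animals gave 3.55-fold (log2 1.83, SE 0.117, adjusted p = 0.00462). Ctsd was 1 of 8 tested members called in the fresh libraries, where 1.18% of 11772 genes were called, and 1 of 8 in the stored libraries, where 0.642% were. Without PC2 the fresh difference was 1.49 on the log2 scale and no longer passed (adjusted p = 0.0507). In summed libraries a larger number of cells of a type and more RNA per cell cannot be told apart.

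The other members lay closer to equality over all barcodes. Ctsb had 4.13 and 2.80 UMIs per 10000 in fresh NC1 and NC2 and 5.82 and 6.86 in PC1 and PC2, without overlap, and a log2 difference of 0.89 (adjusted p = 0.0964). Ctsc (0.64, adjusted p = 0.0742) and Ctsa (0.37, adjusted p = 0.164) also had all CDAA values above all CSAA values and did not pass. The share of all genes without overlap between the diets is not given here, so the separation is a description only. The log2 differences of Ctsz (0.34), Ctsh (0.22), Ctsl (0.16) and Ctss (0.65) had adjusted p-values of 0.300 to 0.706. These values rested on single animals. Without NC1, Ctsh was at 0.73 (adjusted p = 0.0136), Ctsz at 0.56 (0.0340), Ctsb at 1.18 (0.00244) and Ctsc at 0.67 (0.0380), which passed, and Ctsd at 1.76 (0.00174). Without NC2, Ctss (1.35, adjusted p = 0.0011), Ctsb (0.65, 0.0267) and Ctsc (0.61, 0.0489) passed and Ctsh turned to -0.16. Ctsl turned to -0.02 without NC2 and to -0.03 without PC2. The median log2 difference of the 8 members was 0.51 in the fresh and 0.26 in the stored libraries, against -0.02 and -0.03 over all genes tested, and 4 members had an unadjusted p under 0.05 each time.
The cells differed in make-up between the diets too. Over all barcodes the summed Kupffer list (10 genes, none at 0) was 5.23 to 8.68 UMIs per 10000 in CSAA and 11.4 to 18.9 in CDAA libraries. The T cell list was at 7.22 to 9.04 and 3.09 to 3.80, and the plasmacytoid dendritic list at 20.4 to 31.1 and 17.0 to 19.6. The lists of the Clec4a3, Vcan, Cd79a and Ncr1 gates overlapped between the diets. Of the gate genes, Clec4a3 (log2 1.33, adjusted p = 0.0305, edgeR) and Vcan (1.55, adjusted p = 0.0226) were called in the fresh libraries, both higher in CDAA, and the others were not. The empty barcodes also held more Ctsd in the CDAA libraries (4.78 to 6.83) than in the CSAA libraries (1.67 to 1.98). The part of these shifts in the differences over all barcodes was not tested, and levels within gates were compared instead.

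**Figure D2:**
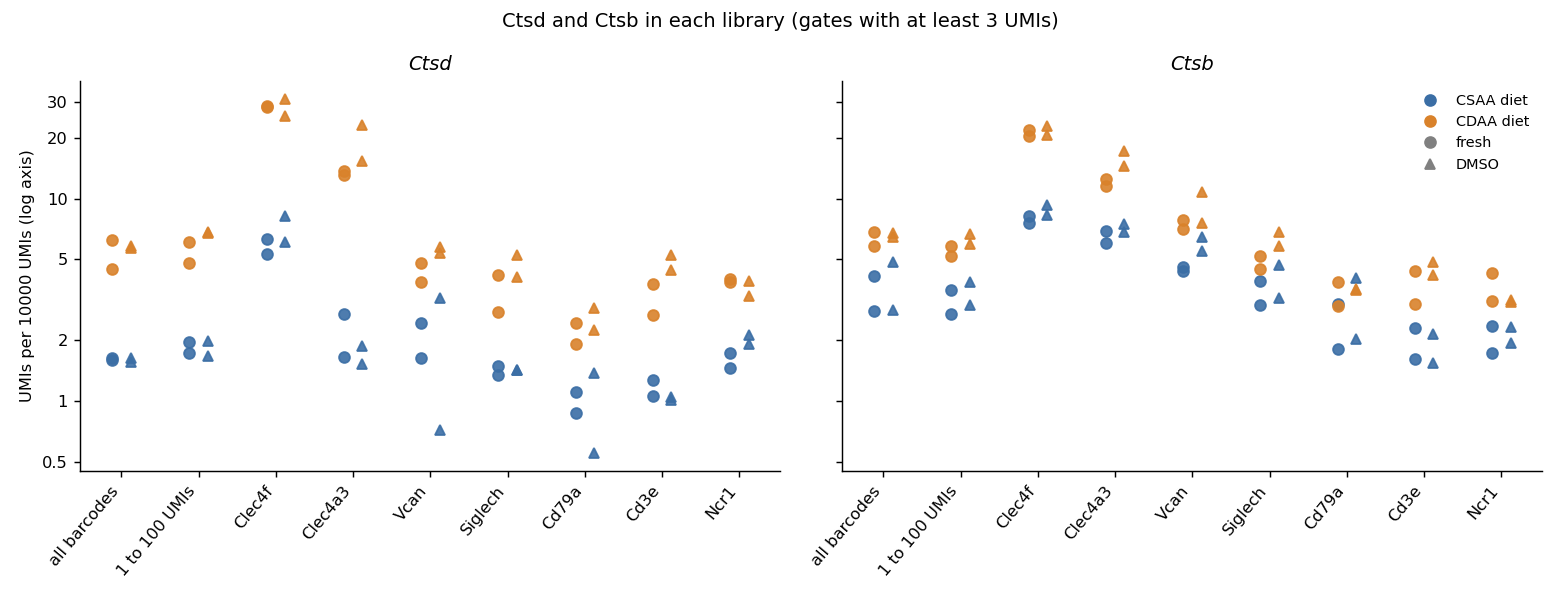
Ctsd and Ctsb levels (y axis, UMIs per 10000 UMIs, log axis) in each library over all barcodes, empty barcodes (1 to 100 UMIs) and the 7 gates of at least 3 UMIs (x axis), with blue for CSAA, orange for CDAA, circles for fresh and triangles for DMSO. The CDAA points of Ctsd lay above the CSAA points in every column, and Ctsd reached 13.03 or more only in the Clec4f and Clec4a3 gates of the CDAA animals.

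The diet difference of Ctsd was found within the Kupffer-like gate as well. In the fresh 1-UMI Clec4f gate Ctsd was at 2.61 and 1.87 UMIs per 10000 in NC1 and NC2 and at 7.76 and 8.87 in PC1 and PC2, a log2 difference of 1.86 (SE 0.233, adjusted p = 0.0309, edgeR). After storage this gate gave 4.88, 3.71, 5.75 and 7.03, again without overlap, and the difference of 0.51 did not pass (adjusted p = 0.719). Ctsd lay above the empty barcodes in 6 of 8 libraries of this 1-UMI gate. Its summed Kupffer list ran from 12.3 to 87.4 UMIs per 10000 over the 8 libraries, so the gate was not equally pure in each. The part of that spread in the 1-UMI difference was not tested. The fresh 3-UMI gate gave 5.35, 6.34, 28.7 and 28.3, a difference of 4.64-fold (log2 2.22, SE 0.192, adjusted p = 0.00097). The stored cells of the same 3-UMI gate gave 6.07, 8.19, 31.1 and 25.6 (log2 1.96, adjusted p = 0.00516). In the 3-UMI gate the CDAA values thus lay well above the CSAA values with no overlap, in fresh and in stored cells. These values came from few barcodes: 30, 38, 27 and 25 in fresh NC1, NC2, PC1 and PC2 and 24, 37, 43 and 12 after storage. The fresh CDAA barcodes were also deeper, with medians of 12064 and 15961 UMIs against 6833.5 and 7284 in the CSAA animals. The part of depth in the difference was not tested. The summed Kupffer list of that gate did not separate the diets, with 197 and 246 UMIs per 10000 in fresh NC1 and NC2 and 206 and 192 in PC1 and PC2.

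Ctsb and Ctsl also rose in the 3-UMI Clec4f gate. Ctsb was at 7.60 and 8.22 UMIs per 10000 in fresh NC1 and NC2 and at 21.8 and 20.3 in PC1 and PC2 (log2 difference 1.34, SE 0.182, adjusted p = 0.00878, edgeR). Ctsl was at 2.02 and 1.66 and at 4.66 and 5.62 (1.42, SE 0.214, adjusted p = 0.0136). Neither overlapped between the diets. Ctsb lay above the empty barcodes in 8 of 8 libraries of this gate but Ctsl in 5, and the fresh CSAA values of Ctsl lay below them. After storage Ctsb was at 9.24, 8.26, 22.9 and 20.6 (1.29, adjusted p = 0.0148), while Ctsl was at 2.23, 3.49, 5.12 and 4.31 and did not pass (0.69, adjusted p = 0.313). In the 1-UMI Clec4f gate neither passed, with log2 differences of 0.78 for Ctsb and 0.70 for Ctsl.
The remaining members of the 3-UMI Clec4f gate had fresh log2 differences of 0.81 (Ctsc, adjusted p = 0.174) or less in size. Ctsh had 14.3 and 10.6 UMIs per 10000 in NC1 and NC2 and 12.1 and 10.0 in PC1 and PC2, with the diets overlapping. Summed, the 9 cathepsins took 51.8 and 52.9 of 10000 UMIs in this gate in fresh NC1 and NC2 and 97.6 and 95.8 in PC1 and PC2.

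The Fcgr3a myeloid-like gate had the same direction for Ctsd and Ctsb. Ctsd in the 1-UMI Clec4a3 gate was at 1.77, 2.08, 3.77 and 4.47 UMIs per 10000 in fresh NC1, NC2, PC1 and PC2 (log2 difference 1.08, adjusted p = 0.0225, edgeR). It lay above the empty barcodes in 4 of 8 libraries of this gate, and both fresh CDAA values lay below them. The fresh and stored calls of this 1-UMI gate are therefore not read as a difference in what these cells express. With 3 UMIs Ctsd was at 2.68, 1.65, 13.03 and 13.6, 6.28-fold apart (2.65, SE 0.197, adjusted p = 0.00057), and Ctsb at 6.92, 6.04, 11.5 and 12.5 (0.88, SE 0.139, adjusted p = 0.0348). The summed Kupffer list of this 3-UMI gate moved with the diet as well, from 13.2 and 6.45 in NC1 and NC2 to 42.2 and 28.1 in PC1 and PC2, and its part in these differences was not tested. The 3-UMI Clec4a3 gate held 28 and 46 barcodes in fresh NC1 and NC2 and 182 and 207 in PC1 and PC2, and stored NC2 held 6, so it was not tested after storage.
In the classical monocyte-like gate, Ctsd had 2.43 and 1.62 and then 3.88 and 4.83 UMIs per 10000 with 3 UMIs of Vcan (1.02, adjusted p = 0.0201, edgeR), and Ctsb 4.59 and 4.41 and then 7.05 and 7.84 (0.69, adjusted p = 0.0478). In this 3-UMI gate Ctsb lay above the empty barcodes in 8 of 8 libraries but Ctsd in 2. The Ctsd call is therefore not read as a difference in what these cells express. With 1 UMI of Vcan neither passed (0.71 and 0.39), nor did they in the stored 3-UMI gate (1.40 and 0.58).

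Over the 7 fresh 1-UMI gates, with 7 or 8 members tested in each, 5 tests of a member were called, against 0.587% of all gene tests in those fits. All 5 were of Ctsd. Besides Clec4f and Clec4a3 they were in the Siglech (1.13, adjusted p = 0.0301, edgeR), Cd3e (1.13, adjusted p = 0.0132) and Ncr1 (1.10, adjusted p = 0.0407) gates. After storage, again with 7 or 8 tested in each gate, 4 were called, against 0.657%. All were Ctsd, in the Clec4a3, Siglech, Cd3e and Ncr1 gates (1.18 to 1.21). The 3-UMI gates gave 10 calls when fresh, with 8 members tested in each, against 0.912%. They gave 5 after storage, with 7 or 8 tested in each, against 1.21%. In the fresh 3-UMI gates the Ctsd differences were 1.27 in Siglech, 1.45 in Cd3e and 1.33 in Ncr1, which passed, and 1.04 in Cd79a, which did not (adjusted p = 0.0713). The Ctsd levels in the 3-UMI Siglech, Cd79a and Cd3e gates and in the 1-UMI Siglech, Cd3e and Ncr1 gates lay below those of the empty barcodes in all 8 libraries, and the empty barcodes differed between the diets in the same direction, so the calls there are not read as a difference in what these cells express. Without NC1 the 5 fresh and 4 stored Ctsd differences of the 1-UMI gates all passed. Leaving out PC2 ended the fresh Siglech and Ncr1 calls in the 1-UMI gates (0.84 and 0.87) and the stored Ncr1 call (1.22), and leaving out PC1 ended the fresh Ncr1 call (1.29) and the stored Siglech call (1.08).

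**Figure D3:**
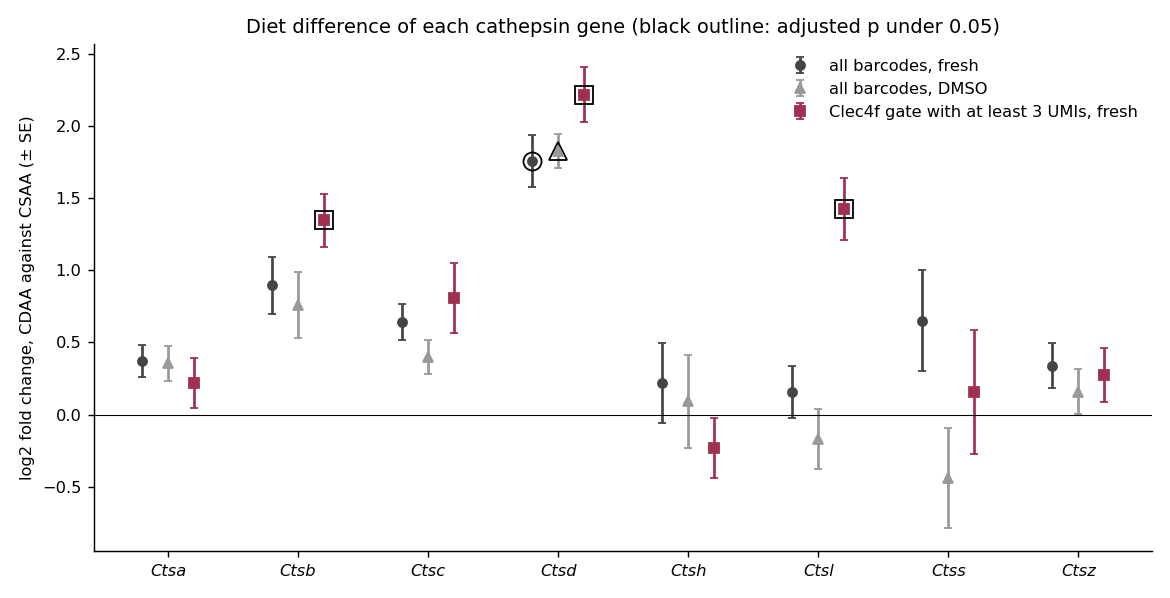
log2 fold change of CDAA against CSAA animals (y axis) with its standard error for 8 cathepsin genes (x axis) over all barcodes of the fresh libraries, all barcodes of the DMSO libraries, and the fresh Clec4f gate of at least 3 UMIs. Outlined points passed an adjusted p of 0.05: Ctsd in all of them, and Ctsb (1.34) and Ctsl (1.42) in the Clec4f gate.

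Whether the diet difference itself differed between the gates was tested with a gate by diet term in the fresh libraries. In the 1-UMI gates 0 of 8 members were called by edgeR, against 0.314% of genes, and 1 had an unadjusted p under 0.05 (Ctsd, adjusted p = 0.349). In the 3-UMI gates 2 of 8 were called, Ctsd (adjusted p = 0.00022) and Ctsl (adjusted p = 0.0184), against 1.57%. Ctsb had an adjusted p of 0.0512. The lowest and highest fresh 3-UMI log2 differences of Ctsd were 1.02 in the Vcan gate and 2.65 in the Clec4a3 gate.

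The storage comparison asks whether cryopreservation left the levels as they were in the fresh cells of the same animal. Over all barcodes Ctsl rose after storage. It went from 2.56 to 4.01 UMIs per 10000 in NC1, from 1.94 to 2.46 in NC2, from 2.168 to 2.84 in PC1 and from 2.78 to 3.02 in PC2. All 4 animals were higher after storage, by 1.35-fold in the fit (log2 0.43, SE 0.0814, adjusted p = 0.0139, edgeR with animals as blocks and Benjamini-Hochberg adjustment). Ctsl was 1 of 8 tested members called, against 9.07% of 11505 genes. That count is near the share over all genes, so it is not read as a result about the members as a set. At an unadjusted p under 0.05 there were 6 members. Without NC2 the difference was 0.43 and without PC1 0.41, and neither passed (adjusted p = 0.0812 and 0.0678), while it passed at 0.33 without NC1 (0.0132) and at 0.53 without PC2 (0.0115). Siglech itself, the gate gene of the cells richest in Ctsl, went from 2.77 to 3.70 in NC1, from 1.73 to 2.104 in NC2, from 1.60 to 2.096 in PC1 and from 1.82 to 2.15 in PC2. The summed mast cell and basophil list was at 0.0599 to 0.688 UMIs per 10000 in the fresh and at 0.00439 to 0.0402 in the stored libraries. The part of these shifts in the Ctsl difference was not tested.

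The other members changed little or not in every animal. Ctsz (0.19, adjusted p = 0.0561), Ctsc (0.22, adjusted p = 0.0699) and Ctsa (0.13, adjusted p = 0.133) were higher after storage in 4 of 4 animals and did not pass. Ctsb (0.15), Ctsd (0.11) and Ctsh (0.11) had adjusted p-values of 0.150 to 0.408 and moved both ways. The median log2 difference of the 8 members was 0.14, against 0.00 over all genes tested.
Ctss had the largest standard error of the 8. Its level went from 0.490 to 0.178 UMIs per 10000 in NC2, from 0.567 to 0.218 in PC1 and from 0.539 to 0.233 in PC2, and the other way in NC1, from 0.223 to 0.424. The fitted difference was -0.76 (SE 0.330, adjusted p = 0.176, edgeR). Without NC1 it was -1.31 and passed (adjusted p = 1.3e-06), and without a filter on low counts it passed at -0.76 (adjusted p = 0.0248).

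**Figure D4:**
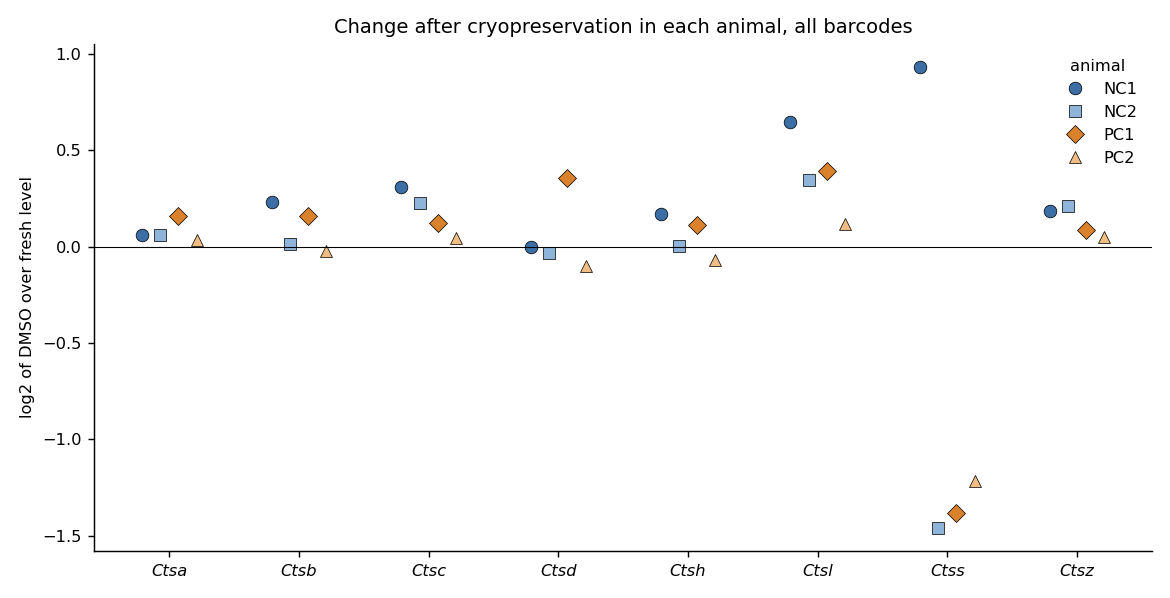
log2 ratio of the DMSO over the fresh level over all barcodes (y axis) for 8 cathepsin genes (x axis) in each of 4 animals. Ctsl was above 0 in all 4 animals, and Ctss was below -1 in NC2, PC1 and PC2 and above 0 in NC1.

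Within the 7 gates of 1 UMI, with 8 members tested in each, 2 tests of a member were called after storage. Of all gene tests in those fits 2.43% were called. So few calls are described singly and not read as a result about the members as a set. Ctss fell in the Clec4a3 gate by 1.12 on the log2 scale (adjusted p = 0.0393, edgeR), from 0.737 to 0.145 UMIs per 10000 in NC2, from 0.604 to 0.210 in PC1 and from 0.650 to 0.255 in PC2, while NC1 had 0.318 and 0.410. Leaving out NC2, PC1 or PC2 ended this call (-0.98, -0.99 and -0.97), and without NC1 it was -1.49 (adjusted p = 9.48e-05). Ctsl rose in the Ncr1 gate by 0.39 (adjusted p = 0.0286), in 4 of 4 animals, but its level there lay below that of the empty barcodes in all 8 libraries, and it did not pass without NC2 (0.36), without PC1 (0.37) or in the 3-UMI gate (0.21).
Of the 3-UMI gates, with 7 or 8 members tested in each, 4 tests were called, against 2.74%. Ctss fell in the Vcan gate (-1.57, SE 0.323, adjusted p = 0.00153), in 4 of 4 animals, from 0.525 to 0.479, from 0.812 to 0.190, from 0.612 to 0.174 and from 0.623 to 0.194 UMIs per 10000 in NC1, NC2, PC1 and PC2. These levels rest on 8, 7, 39 and 52 Ctss UMIs in the fresh and 4, 2, 10 and 11 in the stored gate. The change in NC1 is too small to be read at such counts. In the Siglech gate Ctsb (0.31, adjusted p = 0.0135), Ctsa (0.26, adjusted p = 0.0254) and Ctsl (0.31, adjusted p = 0.0429) rose, each in 4 of 4 animals. Ctsl lay above the empty barcodes in 8 of 8 libraries of this gate, but Ctsb in 5 and Ctsa in 3, so the calls of Ctsb and Ctsa are not read as more expression in these cells.

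The storage difference was not shown to differ between gates: 0 of 8 members were called by edgeR in the 1-UMI gates, against 0.0159% of genes, with 0 at an unadjusted p under 0.05, and 0 of 8 in the 3-UMI gates, against 0.0597%, with 0 again. It was not shown to differ between the diets either, with 0 members called over all barcodes or in any 1-UMI gate, against 0.0763% of all gene tests in these fits and 0.0329% over all barcodes. At an unadjusted p under 0.05 there were 3 members in the Clec4f gate (Ctsb, Ctsc and Ctsd) and 1 each in the Vcan, Siglech and Ncr1 gates. Ctsd in the 1-UMI Clec4f gate came closest (-1.35, adjusted p = 0.0701), where its values went from 2.61 and 1.87 to 4.88 and 3.71 UMIs per 10000 in NC1 and NC2 and from 7.76 and 8.87 to 5.75 and 7.03 in PC1 and PC2.

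For Ctsh and Ctss, animals of the same diet differed. Ctsh over all barcodes was at 5.65 UMIs per 10000 in fresh NC1 and 2.97 in fresh NC2, with 5.14 and 4.73 in PC1 and PC2. After storage it was again 6.35 in NC1 and 2.97 in NC2, with 5.55 and 4.51 in the others. NC2 was the lowest animal both times. The same order of NC1 over NC2 was found in the fresh and stored 3-UMI Siglech gate (9.40 and 5.59 fresh, 11.3 and 5.64 stored) and Cd79a gate (4.61 and 2.174 fresh, 5.32 and 1.62 stored). Ctsh lay above the empty barcodes in 8 of 8 libraries of that Siglech gate but in 1 of 8 of that Cd79a gate. No expression is therefore read from the Cd79a values. For Ctss, NC1 was the lowest of the 4 fresh libraries in 7 of 7 gates of 1 UMI, whereas it was the highest of the stored libraries in 6 of 7. These differences between animals were not tested.

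**Figure D5:**
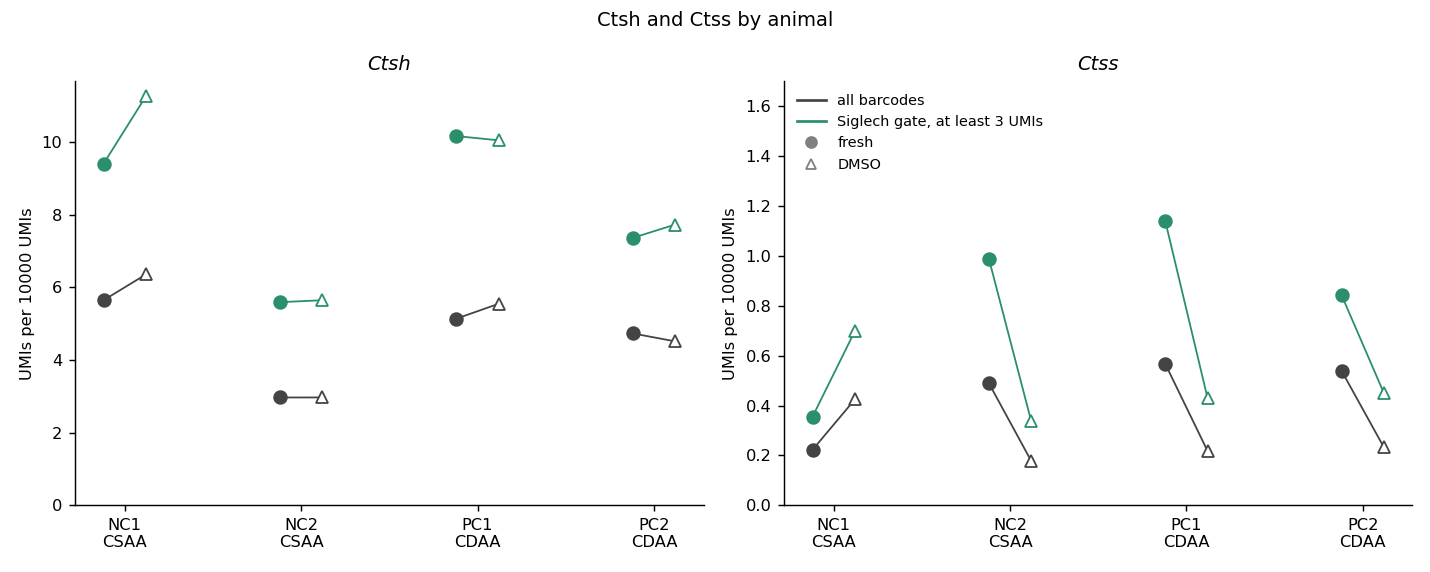
Ctsh and Ctss levels (y axes, UMIs per 10000 UMIs, linear) of each animal (x axes), fresh as filled circles and DMSO as open triangles joined by a line, over all barcodes and in the Siglech gate of at least 3 UMIs. Ctsh of NC2 was the lowest in fresh and stored cells, and Ctss fell after storage in NC2, PC1 and PC2 but rose in NC1.

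The genes whose fresh profile was most like that of each member were found by Pearson correlation of log2 normalised counts over 28 sums (4 animals by 7 gates of 1 UMI) among 6683 genes. The sums share animals, libraries and barcodes' depth, so the values are descriptions only. Ctsd was most like Apoe (0.904), Fabp5 (0.902) and Cd63 (0.897), which encode an apolipoprotein, a fatty acid binding protein and a tetraspanin of late endosomes. Over all barcodes Apoe had 0.330 and 0.125 UMIs per 10000 in fresh NC1 and NC2 and 5.08 and 6.52 in PC1 and PC2. Ctsb was most like Ftl1 (0.943), the ferritin light chain, Anxa5 (0.940) and Plxnb2 (0.937). Ctsl was most like Dnajc7 (0.856) and Tmed3 (0.837) after the gate gene Siglech (0.887), whose profile is fixed by the gating. Ctsz and Ctsh shared Unc93b1, which carries nucleic acid-sensing Toll-like receptors to endosomes (0.904 and 0.891), and Ap1s2 (0.914 and 0.890), and Ctsh was most like Ctsz itself (0.894). Ctss was most like Smdt1 (0.807), Vamp8 (0.789) and LOC689130 (0.734), and over all barcodes NC1 had the lowest fresh and the highest stored level of Smdt1 and of Vamp8, as of Ctss. Vamp8 was at 0.392 UMIs per 10000 in fresh and 0.456 in stored NC1 and at 0.616 and 0.251 in NC2. Ctsz was also like Grn (0.905). The closest genes to Ctsa were Scfd1 (0.720), Krcc1 (0.715) and Iah1 (0.712), and to Ctsc App (0.705), Ndufab1 (0.705) and Dpm3 (0.700).

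Other genes of the pathway were read from lists of further cathepsins, cystatin-type inhibitors, lysosomal genes and MHC class II genes. With the diet, over all barcodes of the fresh libraries, 4 of 47 tested lysosomal genes rose, where 1.18% of all genes were called: Cd63 (log2 3.09, SE 0.158, adjusted p = 0.00799, edgeR), the asparaginyl endopeptidase Lgmn that processes cathepsins (1.23, adjusted p = 0.0441), the acid phosphatase Acp2 (1.03, adjusted p = 0.0302) and the phospholipase Pla2g15 (0.90, adjusted p = 0.0470). None of the list fell, its median log2 difference was 0.36 against -0.02 over all genes, and 23 had an unadjusted p under 0.05. In the stored libraries, where 0.642% of all genes were called, Cd63 (3.55), Lgmn (1.25) and Acp2 (1.21) were. Of the inhibitors, Cst7, or cystatin F, which inhibits cathepsins inside cells, rose in the fresh libraries (1.17, SE 0.117, adjusted p = 0.0226), as 1 of 6 tested. By edgeR 0 of 4 other cathepsins and 0 of 9 MHC class II genes were called, with 1 of each at an unadjusted p under 0.05.
In the storage comparison, where 9.07% of all genes were called, of 6 inhibitors Cst6 rose (2.36, adjusted p = 0.0316) and Stfa2 (-1.07, adjusted p = 0.0188) and Stfa2l2 (-0.81, adjusted p = 0.0271) fell. Stfa2 and Stfa2l2 are close paralogs whose reads may not be told apart. Of 47 lysosomal genes 3 rose and 4 fell, with Atp6v1a (-0.43), Man2b1 (0.41), Lipa (-0.33) and Sort1 (-0.31) the largest, and RT1-Da (0.28) and RT1-Ba (0.20) rose among 9 MHC class II genes. Of 4 other cathepsins 0 were called by edgeR, with 1 at an unadjusted p under 0.05.
Between the fresh 1-UMI Clec4f and Vcan gates, where 3.89% of genes were called, 1 of 8 members was (Ctsd, 0.90 higher in Clec4f). Of 43 tested lysosomal genes 4 were higher and 1 was lower in the Clec4f gate, with a list median of 0.098. The largest were Pla2g15 (1.52), Cd63 (1.40), the macrophage phosphatase Acp5 (1.29) and Lgmn (1.02), all higher. Among 7 MHC class II genes 4 were higher: RT1-Db1 (1.39), RT1-Ba (1.12), RT1-Da (0.77) and the invariant chain Cd74 (0.77). Of 5 inhibitors only Cstb was called, and it was lower there (-0.39 on the log2 scale, adjusted p = 0.0414).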

How the data were processed

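Gene by barcode tables of UMI counts for 8 Chromium Single Cell 3′ libraries were deposited. They were made by the authors with Cell Ranger 2.1.1 (STAR alignment, Rnor6.0 with an Ensembl annotation) and hold raw counts with no normalization. Barcodes with at least 500 UMIs were kept, and levels are UMIs of a gene per 10000 UMIs of the barcodes summed. The members and lists were chosen with earlier results of these data known, and the 3-UMI gates after the data were seen. Gates needed at least 20 barcodes in every library (10 for the 3-UMI gates). No doublet caller was run. Barcodes with UMIs of several gate genes (13802) entered no 1-UMI gate but could enter a 3-UMI gate.

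UMI counts were summed per library and gate and tested in edgeR 4.0.16 (R 4.3.3; quasi-likelihood test, TMM, filterByExpr, Benjamini-Hochberg adjustment over all genes tested, called at 0.05). Storage and gate fits had the animal as a block. Diet fits compared 2 animals with 2, so p-values measure the spread between so few animals. Fresh and stored libraries were paired by animal through their labels, and deviations of the same animal's libraries correlated at 0.51 to 0.66 over 11505 genes. DESeq2 1.42.0, other gates, filters and scalings, a 2-fold minimum and leaving out each animal were alternatives. The fits were tested on simulated data with known changes. SEs are the log2 fold change over the square root of the F statistic. Mean ± SD values are over the 4 animals, and their UMI totals limit the precision by counting error only.

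All 9 members were described in each comparison. For counts at an unadjusted p under 0.05 the share over all genes is not given, so they are descriptions only. From each list at most 4 called genes with the largest log2 fold changes were named, and for likeness the 3 genes with the highest Pearson correlation (log2 CPM, prior count 2). Python 3.11.15, numpy 2.4.6, pandas 2.3.3, scipy 1.17.1 and matplotlib 3.10.9 were used. Promoter windows came from RefSeq. Protein sequences were not used here.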

Additional observations from a re-analysis of the deposited data

Results flagged for a closer look

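The diet difference of Ctsd differed between the fresh gates of at least 3 UMIs by the test of the gate by diet term (adjusted p = 0.00022, edgeR with Benjamini-Hochberg adjustment). Its log2 difference was 2.22 in the Clec4f gate and 2.65 in the Clec4a3 gate and lay between 1.02 and 1.45 in the other 5 gates, of which the Siglech, Cd79a and Cd3e gates held no more Ctsd than the empty barcodes. The diet difference of Ctsl also differed between these gates (adjusted p = 0.0184). Its log2 difference was 1.42 in the Clec4f gate, 1.12 in the Clec4a3 gate and 0.28 in the Vcan gate. Ctsl lay above the empty barcodes in 5, 2 and 0 of 8 libraries in these gates. Neither was called with the gates of 1 UMI, where the adjusted p-values were 0.349 for Ctsd and 0.825 for Ctsl.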

How the results depend on the processing

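Of the values over all barcodes, 4 that had not passed turned their sign, all by leaving out 1 animal. Over the animals left out, Ctsd after storage ranged from -0.00098 to 0.18, and with the diet in the fresh libraries Ctsh ranged from -0.16 to 0.73 and Ctsl from -0.034 (-0.016 without NC2) to 0.35. No called value within the 1-UMI gates turned. Over all barcodes the storage comparison called 1 member, but 3 without a filter on low counts, 0 with a 2-fold minimum, 0 with no replicate block for the animal, and 0 to 2 when leaving out 1 animal. Within gates it called 2, but 0 with at least 2 UMIs of the gate gene, 5 with the gate gene of the most UMIs, 4 with at least 3 UMIs, 0 with DESeq2, 6 without the filter, 1 with the 2-fold minimum, 0 with no replicate block, and 0 to 6 without 1 animal. The fresh diet comparison over all barcodes called 1, but 3 with DESeq2, 3 without the filter, and 0 to 5 without 1 animal, where the lone animal left on a diet is assumed to vary like the others. Within fresh gates it called 5, but 3 with at least 2 UMIs, 9 with the most UMIs, 10 with at least 3 UMIs, 8 without the filter, and 3 to 12 without 1 animal. Within stored gates it called 4, but 2 with at least 2 UMIs, 11 with the most UMIs, 8 without the filter, and 3 to 13 without 1 animal. Fresh gate pairs gave 94 calls, but 52 with at least 2 UMIs, 31 with the 2-fold minimum and 45 with no replicate block. The gate by diet term called 0, but 2 with at least 3 UMIs. The storage by diet term called 0, but 1 with at least 1000 UMIs per barcode and 1 without the filter. The cause of these moves was not tested. The animal numbers 1 and 2 are shared by the diets as numbers only. With the number as a replicate block the diet called 1 member over all barcodes of the fresh libraries, 4 within fresh gates and 6 within stored gates, and fresh Ctsd in the 1-UMI Clec4f gate (1.87) no longer passed (adjusted p = 0.0789). The log2 difference of Ctsl after storage was 0.33 to 0.53 when leaving out 1 animal and between 0.43 and 0.44 under the other alternatives. The 3-UMI gates were not refitted without each animal. Ctsk, with 74 UMIs, was limited by depth.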
